A study of Mus musculus with 57 samples.

Results

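The Zscan4 cluster of mouse chromosome 7 was followed through 57 bulk RNA-seq libraries of differentiating embryonic stem cells, as its 6 copies Zscan4a to Zscan4f together with Usp17la, 7 of the 55450 genes in the count table. The genes were chosen by measured values of these same libraries. Zscan4a had differed at D2 between the gates Sox1-FoxA2+ and Sox1+FoxA2-, and Zscan4e, Zscan4f and Usp17la had been among the strongest decreases in Sox1-FoxA2+ cells at D6, so values of these contrasts are given below as a description with no test. The cells were 1 clone of a mouse embryonic stem cell line, Sox1-EGFP/FoxA2mCherry, in which EGFP replaces 1 Sox1 allele and mCherry tags FoxA2, so each population was set by its sorting gate. D0 cells were Sox1-FoxA2- cells from serum medium with LIF, and D2, D4 and D6 cells were all 4 combinations of the reporters after culture in N2B27 medium with 1 uM retinoic acid (RA) and no LIF. Progeny came from 3 of the gates (all but the one negative for both reporters), of which 50000 cells were sorted at D2, replated in the serum medium without LIF and with 1 uM RA, and taken at D4 or D6, so replating, basal medium and the absence of a second gate cannot be told apart. Progeny are named by their D2 gate and were counted by hand at harvest, not sorted again. Each of the 19 conditions had 3 libraries of about 500 cells.

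Zscan4 genes encode SCAN-domain zinc finger proteins that are switched on at zygotic genome activation in the 2-cell mouse embryo. In embryonic stem cell cultures they mark a rare, transient 2-cell-like state which cells enter and leave, and in which ZSCAN4 is known for telomere lengthening by recombination and for genome stability. The transcription factor DUX switches on the genes of this state, DPPA2 and DPPA4 act upstream of it, and the Usp17l genes, a family of deubiquitinases, are expressed with it. RA has been described to raise the share of Zscan4-positive cells in stem cell cultures. A bulk library holds the summed RNA of its cells, so fewer expressing cells and less RNA per expressing cell cannot be told apart.

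Library totals ran from 10170632 to 81845651 counts, with 14458 to 27832 genes detected. Between 72.1% and 90.6% of the counts from 1 to 100 in a library were even numbers, and 78.8% of the 118 member values in that range were even. The cause was not tested. The exact interval and the 3-count floors given below take each count as independent. If counts came in pairs, the interval would be too narrow and the floors too low. Foxa2 was at 45.5 to 106 CPM (counts relative to a normalised library total) in the Sox1-FoxA2+ gates apart from 1 D4 progeny library at 34.0, and every library of a FoxA2- gate was lower. In sorted D6 Sox1+FoxA2+ cells Foxa2 was at 0, 20.8 and 1.76 CPM, so 2 of the 3 libraries had the level of a FoxA2- gate, and at D4 the gate had 5.90, 12.4 and 23.1 CPM, the first of them under the highest D4 Sox1+FoxA2- library (6.20 CPM). Sox1 was listed at 0 in every library, also in the Sox1+ gates, and so was Sox2. Both lie wholly inside the annotated body of another gene (Sox1ot and Sox2ot), but only 1.78% of Sox1 and 0% of Sox2 exon bases lie in another gene's exons. The paper names Sox1 mRNA below detection as possible, given the replaced allele. The cause of the 0 counts was not tested, and the Sox1 gate could not be checked with its own gene. None of the exon bases of the 7 members lay in another annotated gene.

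The 6 Zscan4 copies lie within 1 stretch of chromosome 7 (GRCm38, GENCODE M21), from Zscan4a at chr7:10794242-10799057 on the minus strand to Zscan4f at chr7:11397915-11402318 on the plus strand, and Usp17la lies at chr7:104857009-104862667 on the plus strand. GENCODE M21 lists Zscan4a as an unprocessed pseudogene and the other 6 members as protein coding. It also lists Zscan4-ps1, Zscan4-ps2 and Zscan4-ps3 of chromosome 7, which are not members, as protein coding. The transcripts of the copies were 96.6% to 99.7% identical (median 97.6% over 15 pairs). The same 90 bases of exon 4 of 4 are printed for each copy to show how little sets them apart, with the 11 positions at which at least 1 copy differs in capitals.
Zscan4a: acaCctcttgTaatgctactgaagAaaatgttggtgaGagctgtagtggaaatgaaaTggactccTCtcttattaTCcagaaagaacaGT
Zscan4b: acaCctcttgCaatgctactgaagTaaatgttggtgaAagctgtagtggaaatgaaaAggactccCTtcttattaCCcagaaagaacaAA
Zscan4c: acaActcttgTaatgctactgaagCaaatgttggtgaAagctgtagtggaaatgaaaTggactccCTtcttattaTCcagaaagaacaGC
Zscan4d: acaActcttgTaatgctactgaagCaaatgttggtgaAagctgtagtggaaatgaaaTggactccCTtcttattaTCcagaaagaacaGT
Zscan4e: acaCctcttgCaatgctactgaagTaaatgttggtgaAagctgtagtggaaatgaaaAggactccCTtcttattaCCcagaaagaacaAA
Zscan4f: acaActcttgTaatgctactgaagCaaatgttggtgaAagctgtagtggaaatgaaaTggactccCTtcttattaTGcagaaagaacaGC
These stretches lie at chr7:10795665-10795754, chr7:10901663-10901752, chr7:11009038-11009127, chr7:11162790-11162879, chr7:11307292-11307381 and chr7:11401231-11401320, in that order, and hold 5 distinct sequences, as Zscan4b and Zscan4e are the same. Only 4.66% of the 50-base stretches of Zscan4f occurred in no other transcript, against 50.4% for Zscan4d and 80.4% for Usp17la. A read can thus often belong to several copies, and single-copy values are uncertain. The sum of the 6 copies, called summed Zscan4 here, is less exposed to this and is used as the main value.

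The promoters of the cluster are alike as well. RefSeq (GRCm38.p6) gave windows from 250 bases before to 50 bases after the start for 5 of the 7 members (Zscan4b, Zscan4c, Zscan4d, Zscan4f and Usp17la), and the Zscan4 windows were 95.3% to 99.3% identical in their aligned bases. Each Zscan4 window held TATAAA, the core of a TATA box, once, and AGGTCA, the half-site of retinoic acid receptors, at least once (2 matches in Zscan4b). The windows are shifted against each other, with TATAAA at -31 from the start in Zscan4b and at -65 in Zscan4d. The place of the first Zscan4b half-site thus lies outside the Zscan4d window, and their numbers of matches cannot be compared. The 3 windows below show the copy with most counts, the copy with both half-site matches and the member with neither motif, with matches on either strand in capitals. They lie at chr7:11166099-11166398 (minus strand), chr7:10905001-10905300 (minus strand) and chr7:104856766-104857065 (plus strand).
Zscan4d: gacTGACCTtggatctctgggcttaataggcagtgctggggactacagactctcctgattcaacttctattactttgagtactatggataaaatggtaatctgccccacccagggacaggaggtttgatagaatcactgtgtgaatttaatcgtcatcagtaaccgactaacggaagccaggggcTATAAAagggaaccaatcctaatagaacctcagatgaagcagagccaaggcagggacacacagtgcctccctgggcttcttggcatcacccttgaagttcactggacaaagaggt
Zscan4b: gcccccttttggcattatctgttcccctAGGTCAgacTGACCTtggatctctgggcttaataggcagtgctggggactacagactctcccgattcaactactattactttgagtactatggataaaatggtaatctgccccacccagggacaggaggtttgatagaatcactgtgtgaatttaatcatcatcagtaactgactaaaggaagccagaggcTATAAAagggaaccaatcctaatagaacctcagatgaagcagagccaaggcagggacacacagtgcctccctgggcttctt
Usp17la: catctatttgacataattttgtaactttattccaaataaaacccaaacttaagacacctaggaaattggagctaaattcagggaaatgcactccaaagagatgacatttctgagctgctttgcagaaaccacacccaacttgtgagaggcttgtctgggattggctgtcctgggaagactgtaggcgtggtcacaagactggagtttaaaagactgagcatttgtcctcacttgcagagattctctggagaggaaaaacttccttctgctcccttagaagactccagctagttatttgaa
Searched on both strands, TATAAA occurred in 13.6% and AGGTCA in 16.3% of the 32851 promoter windows of the table, so neither is rare. TGCACAC, the core of the motif bound by ZSCAN4, occurred in none of the 5 windows and in 4.40% of all. A match describes letters only and shows no binding.

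Summed Zscan4, on the scale of CPM after TMM normalisation, ran from 0.0672 to 2081 CPM over the 57 libraries with a median of 61.5 CPM, and no library was without a count. The lowest level was that of D6 Sox1-FoxA2+ cells and the highest by median that of D2 Sox1-FoxA2- cells. Most conditions held 1 library far from the others. At D0 the libraries were at 10.02, 477 and 379.8 CPM, so stem cells before RA already spanned a wide range. D2 Sox1-FoxA2- cells were at 754, 1447 and 180.1 CPM, and D4 Sox1+FoxA2+ cells at 2081, 399.8 and 20.6 CPM. The first D4 Sox1+FoxA2+ library alone held 31.3% of all Zscan4 counts of the series. Ordered by median, D2 Sox1-FoxA2- (754 CPM) was followed by D4 Sox1+FoxA2+ (399.8 CPM), D0 (379.8 CPM), D4 Sox1-FoxA2- (235 CPM), D2 Sox1+FoxA2- (221 CPM), D6 Sox1+FoxA2- (122 CPM) and D6 Sox1-FoxA2- (103 CPM). D4 progeny Sox1+FoxA2- (101 CPM), D4 Sox1+FoxA2- (96.0 CPM), D6 Sox1+FoxA2+ (69.5 CPM), D4 progeny Sox1+FoxA2+ (56.6 CPM) and D4 progeny Sox1-FoxA2+ (29.0 CPM) made up the middle. At the low end were D6 progeny Sox1+FoxA2- (16.0 CPM), D2 Sox1+FoxA2+ (8.30 CPM), D6 progeny Sox1+FoxA2+ (3.04 CPM), D4 Sox1-FoxA2+ (2.41 CPM), D6 progeny Sox1-FoxA2+ (1.22 CPM), D2 Sox1-FoxA2+ (0.972 CPM) and D6 Sox1-FoxA2+ (0.143 CPM). In all 18 steps of this order the ranges of the neighbours overlapped, so no condition differed from the next one beyond the spread of its libraries.

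**Figure D1:**
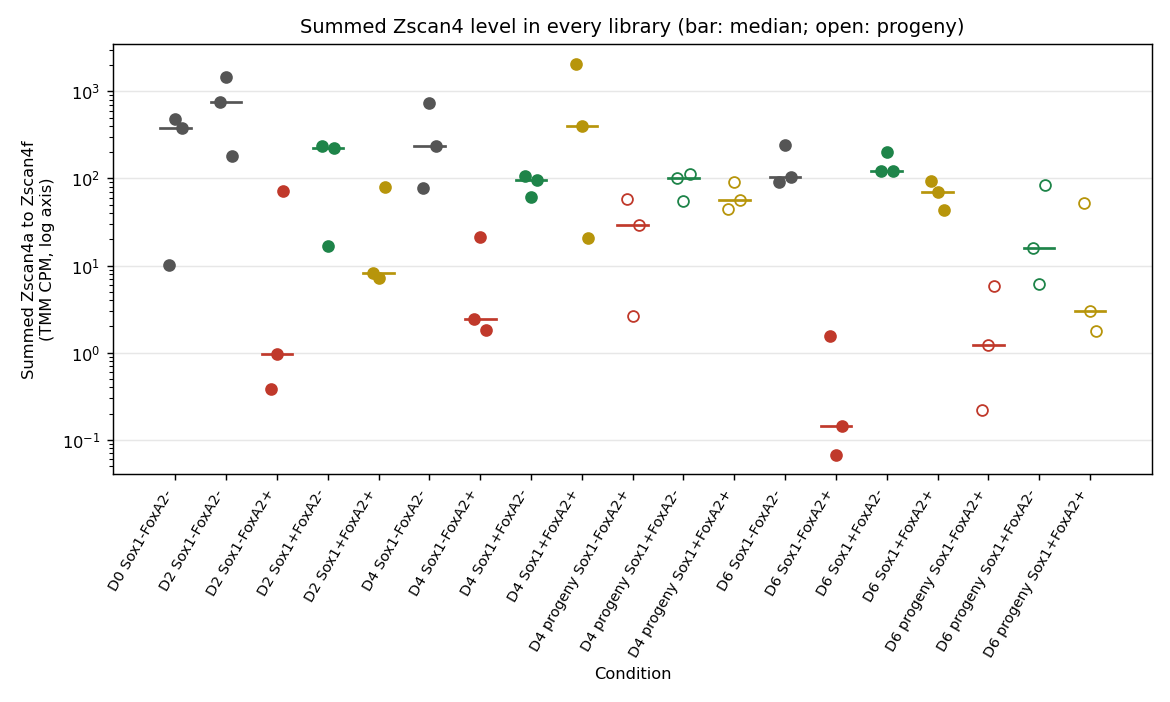
Summed Zscan4a to Zscan4f in CPM (log axis) in each of the 57 libraries, by condition, with the median as a bar, sorted cells as filled and progeny as open points, and the gate as colour. Sox1-FoxA2+ cells (red) held the lowest median of every day and arm, down to 0.143 CPM at D6, while single libraries such as D0 replicate 1 (10.02 CPM) and D4 Sox1+FoxA2+ replicate 1 (2081 CPM) stood far from the others of their condition.

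The replicates of a condition differed more in summed Zscan4 than in other genes. The pooled SD within conditions was 1.82 on the log2(CPM + 1) scale for summed Zscan4, against a median of 0.88 over 17911 genes with a mean of at least 1 CPM and of 0.43 over the 2246 genes whose mean lay within 2 times that of summed Zscan4. None of the 17911 genes had a larger SD. The single members had SDs from 1.40 (Zscan4b) to 1.79 (Zscan4c), and at most 0.698% of genes exceeded any of them. The means of the 19 conditions had an SD of 2.41 on the same scale.

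Sox1-FoxA2+ cells, whose gate selects endoderm-like cells, were low at each day. At D2 they had 0.383, 0.972 and 70.9 CPM of summed Zscan4, against 233, 16.7 and 221 CPM in Sox1+FoxA2- cells, so the ranges overlapped through replicate 3. That library also had 176 CPM over the 50 other genes of the 2-cell-like state in the table, against 17.2 and 26.3 CPM in the other 2. Of the 176 CPM, 43.8 CPM were Zscan4-ps1 to Zscan4-ps3, which can share reads with the copies. At D6 the 3 Sox1-FoxA2+ libraries were at 1.57, 0.0672 and 0.143 CPM, all under the lowest sorted D6 library of another gate at 43.5 CPM. Each of them held counts of 1 copy only, Zscan4d in 2 libraries and Zscan4c in the other, with 50, 2 and 4 counts. Zscan4a, Zscan4b, Zscan4e, Zscan4f and Usp17la had 0 counts in all 3, which allows up to 0.0943, 0.101 and 0.107 CPM (3 counts per library, for counting error only). D6 Sox1+FoxA2- cells were at 122, 202 and 121 CPM. The 10 endoderm markers summed to 20877 to 55191 CPM in the D6 Sox1-FoxA2+ libraries and to 224 to 339 CPM in those cells, and their part was not tested. These D2 and D6 values led to the choice of genes and were not tested.

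D4 libraries had no part in the choice. Sox1-FoxA2+ cells again had the lowest levels at 2.41, 21.1 and 1.83 CPM, against 107, 61.5 and 96.0 CPM in Sox1+FoxA2- cells, 77.7, 736 and 235 CPM in Sox1-FoxA2- cells and 2081, 399.8 and 20.6 CPM in Sox1+FoxA2+ cells. The Sox1-FoxA2+ libraries overlapped only with the third Sox1+FoxA2+ library. Relative to Sox1-FoxA2+ cells, summed Zscan4 was higher where both reporters were on, by 6.70 ± 1.30 (SE) on the log2 scale (edgeR quasi-likelihood test, adjusted p = 0.026, n = 3 against 3). Of the members, Zscan4b (7.22), Zscan4c (11.23), Zscan4e (8.79) and Zscan4f (6.58 on the log2 scale) passed the test, 4 of 7, where 0.462% of 22946 genes were called. Leaving out Sox1-FoxA2+ replicate 1 ended the call of the sum (6.30, adjusted p = 0.082 by edgeR), and without Sox1+FoxA2+ replicate 1, the library at 2081 CPM and with the lowest Foxa2 of its gate (5.90 CPM), the difference was 4.63 with 2 members called. DESeq2's size factors also gave 2 called members, and leaving out Sox1-FoxA2+ replicate 3 gave 2 as well.

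Against Sox1-FoxA2- cells of D4, Zscan4c (-9.65 ± 1.59) and Zscan4e (-7.25 ± 1.45) were lower in Sox1-FoxA2+ cells on the log2 scale (edgeR, adjusted p = 0.0074 and 0.036), 2 of 7 members where 0.266% of genes were called. The ranges of the sum did not overlap, and its difference of -5.33 ± 1.22 had an adjusted p of 0.082 in edgeR. Libraries with the same replicate number deviated together in this pair of gates, and with the replicate block the sum passed (-5.70, adjusted p = 0.0095 by edgeR) with 3 members called. It also passed when Sox1-FoxA2- replicate 1 (-5.76) or replicate 2 of the Sox1-FoxA2+ gate (-7.14) was left out. Against Sox1+FoxA2- cells, Zscan4c was the only member called in Sox1-FoxA2+ cells (-7.44 ± 1.48, edgeR, adjusted p = 0.040), 1 of 7 where 0.227% of genes were called. It had 0.219, 0.0370 and 0 CPM there, against 16.8, 16.0 and 9.85 CPM. The call was lost without Sox1-FoxA2+ replicate 2 or replicate 3, with DESeq2's size factors and with all 57 libraries in 1 fit. For the sum the difference was -3.42 ± 1.11 (adjusted p = 0.49 by edgeR), although all 3 libraries lay under the lowest of the Sox1+FoxA2- cells.

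In the remaining D4 contrasts edgeR called no member with the filter on low counts, and 7 and 3 members without it. Between Sox1+FoxA2+ and Sox1+FoxA2- cells summed Zscan4 differed by 3.28 ± 1.10 (edgeR, adjusted p = 0.73). An unadjusted p under 0.05 was found for 5 members and for 1531 of 22946 genes. By edgeR 0 members and 0% of genes were called, and by DESeq2 1 member was. Against Sox1-FoxA2- cells, those of the Sox1+FoxA2- gate were at -1.92 ± 1.05 (edgeR, adjusted p = 0.85), with 1 member at an unadjusted p under 0.05 and 0 called by either tool, where edgeR again called 0% of genes. The 5 contrasts of D4 share libraries and are not independent.

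Endoderm markers were high in the D4 gate with the lowest summed Zscan4. The 10 endoderm markers, all counted in each Sox1-FoxA2+ library, summed to 13683 to 30338 CPM there and to 222 to 951 CPM in the other D4 gates. The 16 pluripotency genes, of which Sox2 was at 0 throughout and Nr0b1 at 0 in Sox1-FoxA2+ cells, summed to 359 to 552 CPM in Sox1-FoxA2+, 441 to 1901 CPM in Sox1-FoxA2-, 193 to 315 CPM in Sox1+FoxA2- and 256 to 683 CPM in Sox1+FoxA2+ cells. By this sum, all 3 Sox1-FoxA2+ libraries lay above those of Sox1+FoxA2- cells, the reverse of summed Zscan4. Their range overlapped with the ranges of both other gates. Gene by gene, most of the list went the same way as summed Zscan4. Relative to the Sox1+FoxA2- gate, 4 of 15 tested genes had a positive difference. The median was -0.44 on the log2 scale, with 0 genes called by edgeR and 5 at an unadjusted p under 0.05. Compared with Sox1-FoxA2- cells, 3 of 15 tested genes were called lower in the Sox1-FoxA2+ gate and 0 higher, where 0.266% of all genes were called. Among the 3 was Nanog (-5.40 ± 0.93 on the log2 scale, edgeR, adjusted p = 0.011). The median was -2.60, with 2 genes positive and 8 at an unadjusted p under 0.05. The 8 neuroectoderm markers, of which Sox1 and Sox2 were at 0, summed to 516 to 909.9 CPM in Sox1+FoxA2-, 254 to 507 CPM in Sox1-FoxA2+, 319 to 1078 CPM in Sox1-FoxA2- and 361 to 760.0 CPM in Sox1+FoxA2+ cells. The part of these markers in the Zscan4 differences was not tested.

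**Figure D2:**
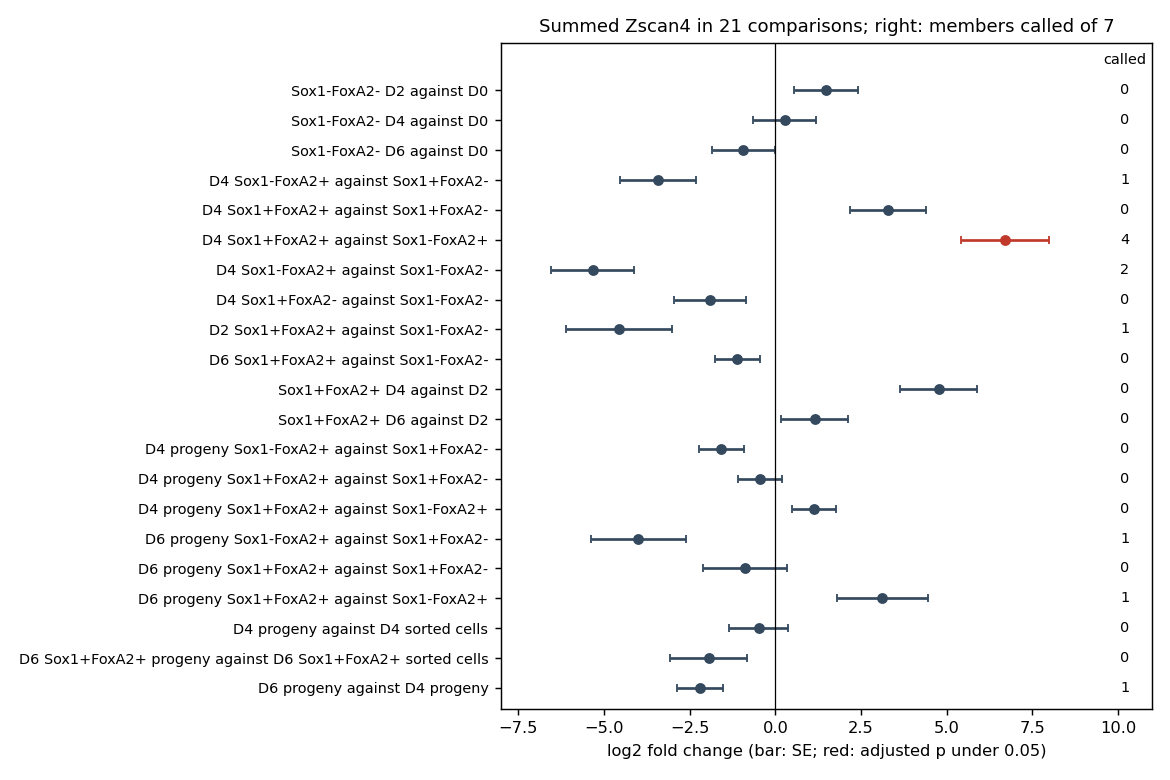
Log2 fold change of summed Zscan4 with its SE in the 21 comparisons of edgeR, named on the left, with the number of called members of 7 on the right and adjusted p under 0.05 in red. The red point is D4 Sox1+FoxA2+ against Sox1-FoxA2+ at 6.70, with 4 members called.

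Sox1+FoxA2+ cells, which express both reporters, were compared with Sox1-FoxA2- cells at D2 and D6. Their D2 libraries were at 8.30, 7.12 and 80.4 CPM of summed Zscan4, against 754, 1447 and 180.1 CPM in D2 Sox1-FoxA2- cells with no overlap. The sum differed by -4.56 ± 1.55 (edgeR, adjusted p = 0.39), and 6 of the 7 members had an unadjusted p under 0.05, as had 2250 of 20369 genes. Zscan4a was the only member called, 1 of 7 where 0.0442% of 20369 genes were called (edgeR, adjusted p = 0.0035). It had 1 count in the 3 Sox1+FoxA2+ libraries and 10128 in the 3 Sox1-FoxA2- libraries, a ratio of 8856 with a 95% exact interval from 1589 to 349828 that covers counting error only. The fit also held the D2 libraries of Sox1-FoxA2+ and Sox1+FoxA2- cells, whose difference in Zscan4a led to its choice. This call is therefore not independent of that choice. The call was lost without Sox1-FoxA2- replicate 2, the library with 1447 CPM. Beside it, the pluripotency genes summed to 161 to 349 CPM in Sox1+FoxA2+ and to 493 to 1506 CPM in Sox1-FoxA2- cells, with 0 of 15 called by edgeR, 11 at an unadjusted p under 0.05 and a median of -2.94. The endoderm markers summed to 467 to 1222 and to 277 to 446 CPM, and the part of both lists was not tested. At D6 the ranges overlapped, with 93.8, 69.5 and 43.5 CPM in Sox1+FoxA2+ and 90.5, 240.4 and 103 CPM in Sox1-FoxA2- cells. There the sum differed by -1.11 ± 0.66 (edgeR, adjusted p = 0.77), with 0 members called by edgeR or DESeq2 and 0 at an unadjusted p under 0.05, where 0.0909% of genes were called. Without the Sox1+FoxA2+ libraries of low Foxa2 the difference was -1.36 (replicate 1) and -0.83 (replicate 3). The endoderm markers summed to 1672 to 13583 CPM in Sox1+FoxA2+ and to 315 to 460.1 CPM in Sox1-FoxA2- cells, and their part in this comparison was not tested.

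Within the Sox1+FoxA2+ gate, summed Zscan4 at D4 exceeded D2 by 4.76 ± 1.13 (edgeR, adjusted p = 0.25). Of 21429 genes, 2631 had an unadjusted p under 0.05 in either direction. All 7 members were among them, in the same direction, but near-identical copies can share reads and are not separate observations. By edgeR 0 members were called, where 0.0187% of genes were called, and by DESeq2 6 members were. The difference rested on few libraries, as D4 replicate 3 (20.6 CPM) lay under D2 replicate 3 (80.4 CPM). Without either of them the sum passed (5.34 and 6.84, adjusted p = 5.7e-04 and 0.0021 by edgeR) and 6 members were called. Without D4 replicate 1 the difference was 2.71 with 0 members called. D6 exceeded D2 by 1.15 ± 0.97 (edgeR, adjusted p = 0.69), with 2 members at an unadjusted p under 0.05 and 0 called, where 0.0887% of genes were called, and 1 called by DESeq2. The change of Sox1+FoxA2+ relative to Sox1-FoxA2- cells between D2 and D4 was 5.99 ± 1.47 for summed Zscan4 (edgeR, adjusted p = 0.42), so a difference between the days was not called either.

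Sox1-FoxA2- cells, which had gained neither reporter, were the only gate with a D0 sample, and from D0 to D2 RA, loss of LIF and the basal medium changed together and cannot be told apart. Summed Zscan4 was at 10.02, 477 and 379.8 CPM at D0, at 754, 1447 and 180.1 CPM at D2, at 77.7, 736 and 235 CPM at D4 and at 90.5, 240.4 and 103 CPM at D6. All 4 ranges overlapped. Against D0 the sum differed by 1.49 ± 0.94 at D2, 0.27 ± 0.92 at D4 and -0.93 ± 0.92 at D6 (edgeR, adjusted p = 0.45, 0.94 and 0.61). No member was called by edgeR at any of the days, where 1.41%, 1.26% and 4.02% of 21278 genes were called, and 0, 0 and 1 had an unadjusted p under 0.05. DESeq2 called 0, 0 and 1. The D4 difference turned negative without D0 replicate 1 (-0.29) or D4 replicate 2 (-0.82). D0 replicate 1, the lowest of the 12 libraries at 10.02 CPM, had 4035 CPM over the pluripotency genes, the highest of the 3 D0 libraries.

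Progeny of the D2 gates had medians of 29.0 to 101 CPM at D4 and of 1.22 to 16.0 CPM at D6. In D4 progeny summed Zscan4 was at 58.0, 2.62 and 29.0 CPM in Sox1-FoxA2+, 101, 54.5 and 114 CPM in Sox1+FoxA2- and 44.6, 91.1 and 56.6 CPM in Sox1+FoxA2+ cells. Sox1-FoxA2+ progeny differed from Sox1+FoxA2- progeny by -1.58 ± 0.65 (edgeR, adjusted p = 0.39), Sox1+FoxA2+ from Sox1+FoxA2- progeny by -0.45 ± 0.64 (adjusted p = 1.0) and Sox1+FoxA2+ from Sox1-FoxA2+ progeny by 1.13 ± 0.65 (adjusted p = 0.71). No member was called in the 3 contrasts by edgeR or DESeq2, where edgeR called 1.86%, 0% and 0.768% of 20697 genes, and 2, 0 and 2 members had an unadjusted p under 0.05.

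D6 progeny were at 0.219, 1.22 and 5.90 CPM in Sox1-FoxA2+, 16.0, 6.08 and 85.0 CPM in Sox1+FoxA2- and 51.8, 3.04 and 1.78 CPM in Sox1+FoxA2+ cells. The Sox1-FoxA2+ range lay under that of Sox1+FoxA2- progeny, and the sum differed by -4.00 ± 1.38 (edgeR, adjusted p = 0.12). Usp17la was the member called, at -6.85 ± 1.70 on the log2 scale (edgeR, adjusted p = 0.026), 1 of 7 where 6.78% of 21069 genes were called. It was at 0, 0.0660 and 0 CPM (4 counts in all) in Sox1-FoxA2+ and at 4.51, 0.512 and 4.19 CPM in Sox1+FoxA2- progeny, and the call was lost without Sox1+FoxA2- replicate 1 or replicate 3, with all 57 libraries in 1 fit and under the replicate block, where 0 members were called. Sox1+FoxA2+ progeny exceeded Sox1-FoxA2+ progeny in Usp17la by 6.29 ± 1.66 (edgeR, adjusted p = 0.048), with 0.929, 1.42 and 3.97 CPM, again 1 of 7 members where 4.48% of genes were called. Replicate numbers paired these gates, and with the replicate block, as with all 57 libraries in 1 fit, 0 members were called. The call was also lost when any library but Sox1+FoxA2+ replicate 1 was left out. For summed Zscan4 this difference was 3.12 ± 1.33 (edgeR, adjusted p = 0.25) and fell to 0.12 without Sox1+FoxA2+ replicate 1. Between Sox1+FoxA2+ and Sox1+FoxA2- progeny the sum differed by -0.88 ± 1.23 (adjusted p = 0.90 by edgeR), with 0 members called where 0.152% of genes were called, 1 at an unadjusted p under 0.05 and 1 called by DESeq2. It turned to 0.78 without Sox1+FoxA2- replicate 3. Markers of other cell types differed between the D6 progeny too. All 10 endoderm markers were called higher and 5 of 6 tested neuroectoderm markers lower in Sox1-FoxA2+ than in Sox1+FoxA2- progeny, and 10 endoderm markers were called lower and 4 neuroectoderm markers higher in Sox1+FoxA2+ relative to Sox1-FoxA2+ progeny. The endoderm markers summed to 32261 to 58504 CPM in Sox1-FoxA2+, 1193 to 3706 CPM in Sox1+FoxA2- and 5276 to 11283 CPM in Sox1+FoxA2+ progeny, and the neuroectoderm markers to 196 to 309, 1262 to 2090 and 707 to 1104 CPM. Their part in the Usp17la and Zscan4 values was not tested.

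From D4 to D6, over the 3 gates of the progeny, summed Zscan4 changed by -2.20 ± 0.66 (edgeR, adjusted p = 0.093), and DESeq2 called the sum at -2.23 (adjusted p = 0.035). An unadjusted p under 0.05 was found for 4 members and for 2911 of 24025 genes. Zscan4a, the copy annotated as a pseudogene, was called lower at D6 (-5.38 ± 1.23, edgeR, adjusted p = 0.017), 1 of 7 where 1.81% of genes were called. Its 9 D4 progeny libraries ran from 0 to 16.7 CPM, with a median of 5.10 CPM, and its 9 D6 progeny libraries from 0 to 7.84 CPM, with a median of 0.0548 CPM. The sum passed without D6 progeny Sox1+FoxA2- replicate 3 or Sox1+FoxA2+ replicate 1, at -2.77 and -3.09 (edgeR, adjusted p = 0.016 and 0.013). Over the same step 8 of 10 endoderm markers were called higher at D6 (median 1.53 on the log2 scale) and 2 of 6 neuroectoderm markers lower, and their part was not tested.

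D4 progeny, gated at D2, and D4 cells sorted at D4 with the same 3 gates differed by -0.48 ± 0.86 in summed Zscan4 (edgeR, adjusted p = 0.80), with 0 members called by edgeR or DESeq2 and 0 at an unadjusted p under 0.05, where 6.73% of 24857 genes were called. This is a common difference over gates that moved unlike each other. From sorted cells to progeny the median went from 2.41 to 29.0 CPM in Sox1-FoxA2+ and from 96.0 to 101 CPM in Sox1+FoxA2-. In Sox1+FoxA2+ it went from 399.8 to 56.6 CPM. Without D4 Sox1+FoxA2+ replicate 1 the sign of the common difference turned (0.16). In this contrast 3 of 10 endoderm markers were called higher, and 3 of 6 neuroectoderm markers higher and 1 lower, and their part was not tested. At D6, Sox1+FoxA2+ progeny (51.8, 3.04 and 1.78 CPM) differed from sorted Sox1+FoxA2+ cells (93.8, 69.5 and 43.5 CPM) by -1.95 ± 1.11 (edgeR, adjusted p = 0.37). The ranges overlapped, 0 members were called by edgeR where 2.17% of 25515 genes were called, 1 had an unadjusted p under 0.05, and DESeq2 called 1. Sorted Sox1-FoxA2+ and Sox1+FoxA2- cells of D6 were at 0.0672 to 1.57 and at 121 to 202 CPM, and their progeny at 0.219 to 5.90 and at 6.08 to 85.0 CPM.

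The single copies were compared per length, as CPM per kb of exon. The deposited counts may hold reads from introns, since the counting rule was not given in the sources used here. Zscan4d had the highest mean over the 57 libraries at 20.8 CPM per kb, followed by Zscan4e (18.1), Zscan4c (16.6), Zscan4f (13.3), Zscan4b (5.93) and Zscan4a (5.65), and Usp17la had 3.54. In the 46 libraries with at least 100 summed Zscan4 counts, the median share of the summed level per kb was 26.8% for Zscan4d and 4.47% for Zscan4a. Zscan4d led in 23 of these libraries, Zscan4c and Zscan4e in 9 each, Zscan4f in 4 and Zscan4a in 1. The share of a copy was not fixed, however, since that of Zscan4c ran from 0% to 80.1% and that of Zscan4d from 0% to 76.5%. All 6 copies were counted in 38 libraries. Zscan4d, with the largest share of unique 50-base stretches, was also the copy with most counts. Zscan4f (14.7% of all member counts) and Zscan4e (18.7%) had few unique stretches (4.66% and 8.43%). How reads that match several copies were counted was not given, and the part of uniqueness in the order of the copies was not tested.

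**Figure D3:**
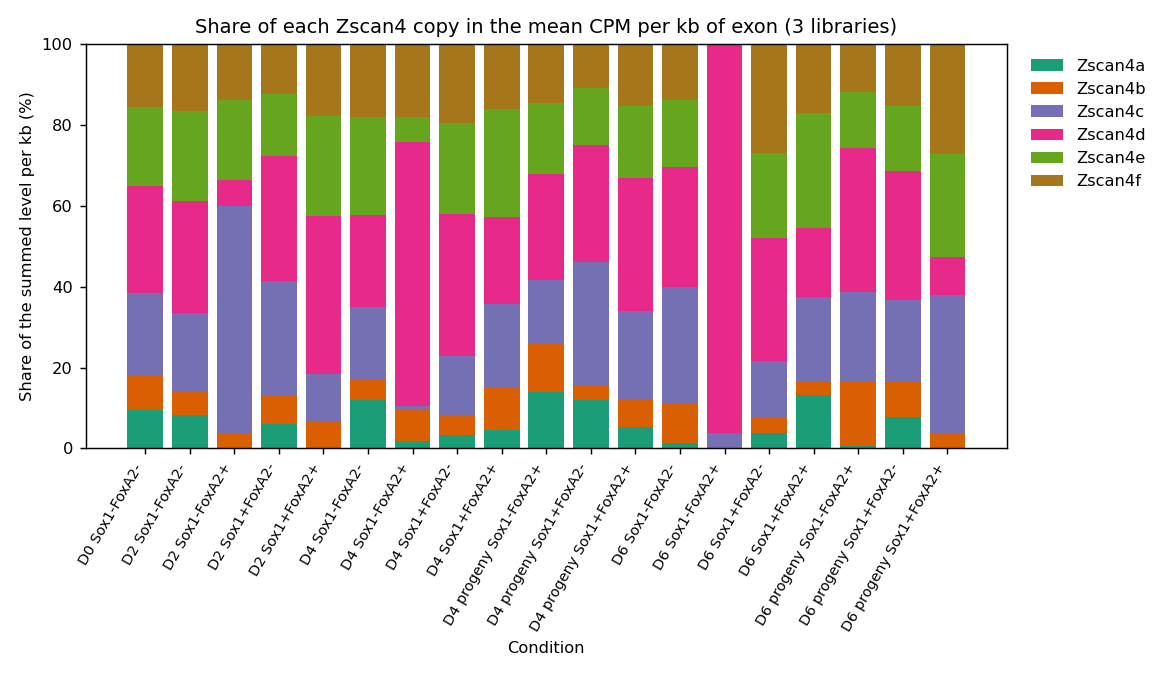
Share of each Zscan4 copy (in %) in the mean CPM per kb of exon of the 3 libraries of each condition. Zscan4d made up 96.2% in D6 Sox1-FoxA2+ cells, where the 3 libraries held 56 Zscan4 counts in all, and 65.3% in D4 Sox1-FoxA2+ cells, against 9.25% in D6 progeny Sox1+FoxA2+ cells.

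The copies rose and fell together over libraries. Spearman's rho between 2 copies ran from 0.70 to 0.94 over the 57 libraries (median 0.82, 15 pairs), as a description, since near-identical copies can share reads. With Usp17la, which has its own sequence, rho was 0.58 to 0.67, and it was 0.63 with summed Zscan4 over libraries and 0.87 over the 19 condition means. Usp17la was highest in D4 Sox1+FoxA2+ replicate 1 (196 CPM), the library with the highest summed Zscan4, and the next was D2 Sox1+FoxA2- replicate 1 (94.2 CPM). It had no count in 12 libraries, among them D2 Sox1+FoxA2- replicate 3 with 221 CPM of summed Zscan4. The rho of summed Zscan4 with the library total was -0.15 and with the number of genes detected -0.046.

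**Figure D4:**
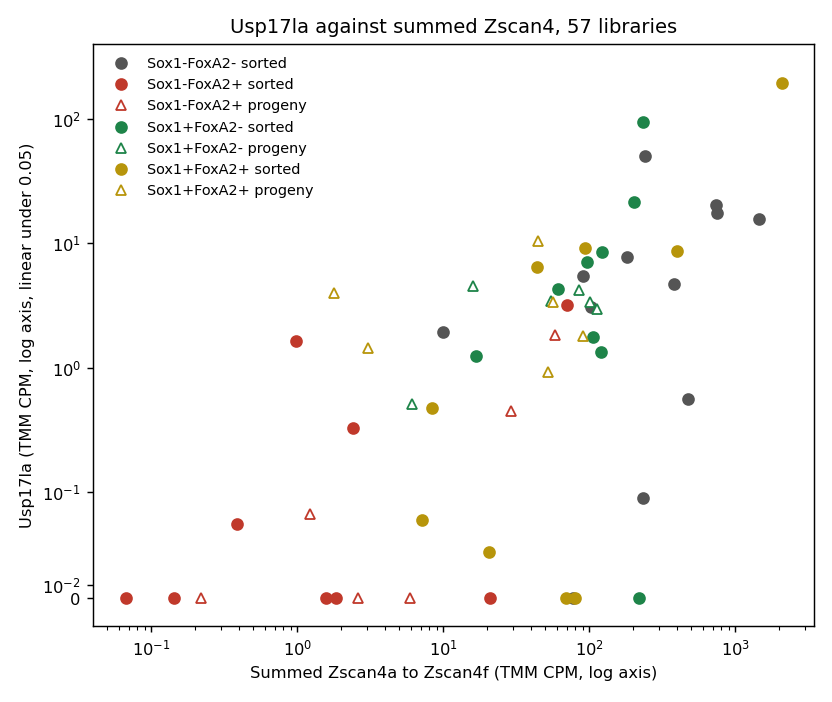
Usp17la against summed Zscan4a to Zscan4f, both in CPM on log axes (Usp17la linear near 0), in the 57 libraries, with the gate as colour and progeny as open triangles. Libraries with high summed Zscan4 mostly had high Usp17la, up to 196 CPM at 2081 CPM, while several libraries between 69.5 and 221 CPM of summed Zscan4 had 0.

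Ranked by Spearman's rho with summed Zscan4 over the 57 libraries, the closest of 17904 genes with a mean of at least 1 CPM was Gm21761 (rho = 0.92, and 0.93 over the 19 condition means). Zscan4-ps2 (0.90), Gm5039 (0.87), Gm8994 (0.86), Gm16478 (0.86), Gm20767 (0.86), Gm8332 (0.85), Gm8300 (0.84), Zscan4-ps3 (0.84) and Vmn2r-ps139 (0.81) followed, and their rho over condition means was 0.85 to 0.95. Several of these belong to families of near-identical copies, Zscan4-ps2 and Zscan4-ps3 to Zscan4 itself, so shared reads cannot be told apart from shared expression. The median rho of all ranked genes was 0.0064.

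Other genes of the 2-cell-like state were described with a list of 52 genes, chosen with results of these data known, of which 50 were in the table and 32 had a mean of at least 1 CPM. Of the 32, 23 had a rho over 0.5 with summed Zscan4, while 264 of the 17904 ranked genes did. The 23 include Zscan4-ps1, Zscan4-ps2 and Zscan4-ps3, which are near-identical to the copies and can share their reads. They also include Usp17lb to Usp17le, of the same family as Usp17la. In D4 Sox1+FoxA2+ against Sox1-FoxA2+ cells 5 of 38 tested genes were called higher and 0 lower, where 0.462% of all genes were called in either direction, with a median log2 fold change of 7.50 against 0.21 over all genes tested. Usp17le, a deubiquitinase, went from 1.48, 3.92 and 1.44 CPM to 294, 191 and 2.26 CPM (6.18 ± 1.07, edgeR, adjusted p = 0.012), and the other called genes were Zscan4-ps2 (10.13), Gm12794 (12.85), Sp110 (12.04) and Gm8300 (8.58 on the log2 scale). In D4 Sox1-FoxA2+ against Sox1-FoxA2- cells Sp110, Zscan4-ps2 and Gm12794 were called lower, 3 of 38 with 0 higher, where 0.266% of all genes were called, and a median of -6.05 against 0.048. Against Sox1+FoxA2- cells Sp110 was called lower, 1 of 38 where 0.227% of all genes were called, with a median of -3.47 against -0.10.

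In the other contrasts the list gave few calls. Gm5662 was called lower in D4 progeny than in D4 sorted cells, 1 of 39 where 6.73% of all genes were called, and in D6 Sox1+FoxA2+ progeny than in sorted cells, 1 of 37 where 2.17% were called, shares under or near that of all genes. The medians were -0.76 and -3.83 against -0.24 and -0.43 over all genes. In the remaining 16 contrasts 0 genes of the list were called by edgeR, with 0 to 18 at an unadjusted p under 0.05, and DESeq2 was not run on the list. Its median was 6.11 in Sox1+FoxA2+ cells from D2 to D4 and -3.90 in D2 Sox1+FoxA2+ against Sox1-FoxA2- cells, the contrasts in which all 7 and 6 members had an unadjusted p under 0.05. In Sox1-FoxA2- cells at D6 against D0 the median of the list (0.50) and the sum (-0.93) had opposite signs.

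**Figure D5:**
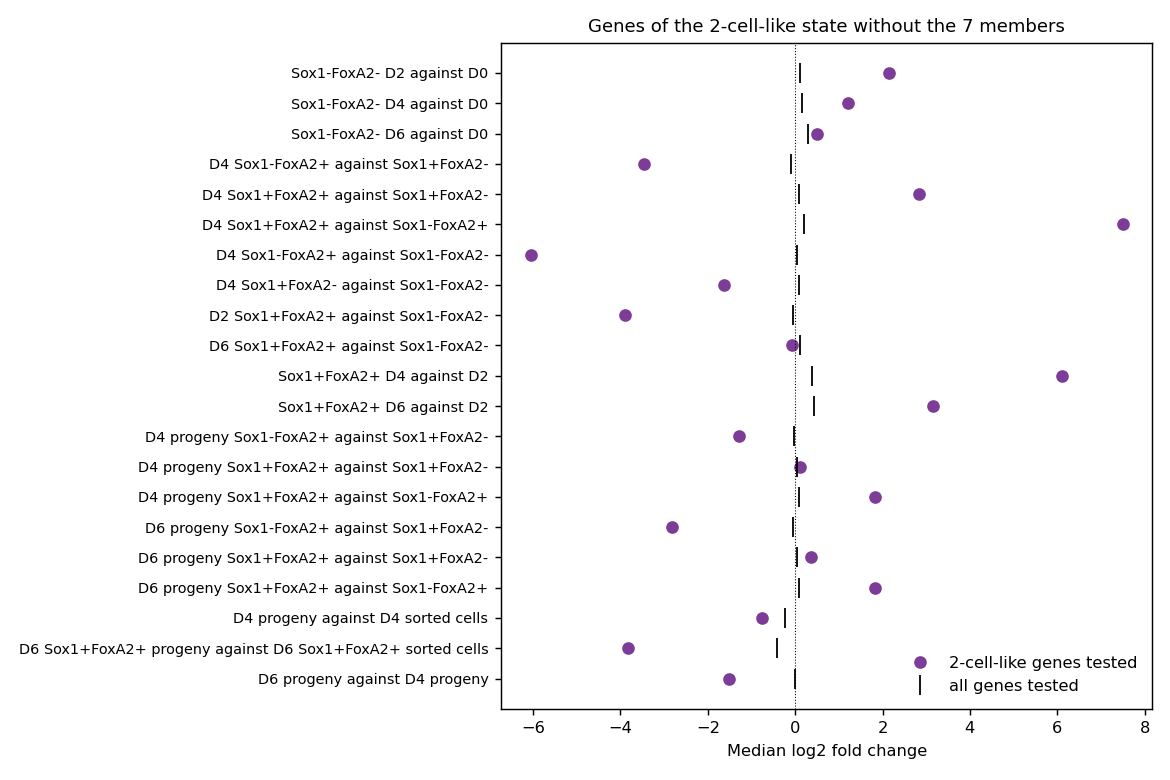
Median log2 fold change of the tested genes of the 2-cell-like list (points, without the 7 members) and of all genes tested (vertical ticks) in the 21 comparisons named on the left. The list holds Zscan4-ps1 to Zscan4-ps3 and Usp17lb to Usp17le, relatives of the members. The list lay farthest from all genes in D4 Sox1+FoxA2+ against Sox1-FoxA2+ cells, at 7.50 against 0.21, and close to them in D4 progeny Sox1+FoxA2+ against Sox1+FoxA2- cells, at 0.10 against 0.053.

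Duxf3, a copy of the DUX gene, had 0 counts in all 57 libraries, which allows up to 0.0368 to 0.388 CPM (3 counts per library). Among the 4 genes listed as upstream activators, Dppa2 and Trp53 were called in the D6 progeny, in contrasts where 6.78% and 4.48% of all genes were called, and Dppa2 was at 10.8, 12.6 and 10.3 CPM in Sox1-FoxA2+, 42.2, 39.8 and 34.9 CPM in Sox1+FoxA2- and 50.2, 48.3 and 46.1 CPM in Sox1+FoxA2+ cells. The Sox1-FoxA2+ libraries lay under all the others. Dppa2 differed by -1.89 ± 0.26 between Sox1-FoxA2+ and Sox1+FoxA2- progeny (edgeR, adjusted p = 4.8e-04) and by 2.22 ± 0.26 between Sox1+FoxA2+ and Sox1-FoxA2+ progeny (adjusted p = 5.3e-04). Dppa2 and Trp53 were also called lower in Sox1-FoxA2- cells at D6 than at D0 (-1.96 ± 0.48 and -1.22 ± 0.28 on the log2 scale, edgeR, adjusted p = 0.030 and 0.023), where 4.02% of all genes were called, and 0 of the 4 were called in the D4 contrasts of sorted cells. Of the 19 genes listed as repressors of the state, Trim28, Rif1, L3mbtl2 and Ncl were called lower in Sox1-FoxA2- cells at D6 than at D0, and Ncl also at D2 and D4, where 4.02%, 1.41% and 1.26% of all genes were called, with 0 calls in the 5 D4 contrasts of sorted cells. Lin28a, another gene of that list, was called higher in D6 progeny Sox1-FoxA2+ than Sox1+FoxA2- cells, and in the remaining contrasts the list held at most 1 call in each direction. Of the 14 telomere and recombination genes, Rif1 (-1.36 ± 0.22) and Terf1 (-1.33 ± 0.27) were called lower at D6 than at D0 in Sox1-FoxA2- cells (edgeR, adjusted p = 0.0042 and 0.014). Terf1 was also called lower at D4 than at D0, Rtel1 was called lower in D6 progeny Sox1+FoxA2+ relative to Sox1-FoxA2+, and 0 were called in the D4 contrasts of sorted cells.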

How the data were processed

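The authors sorted 500 cells per library straight from the gate or, for progeny, harvested and counted cells by hand and took about 500 without a new sort. They made SMART-Seq Stranded libraries and sequenced them on an Illumina NovaSeq. Reads were aligned with STAR and counted per gene with featureCounts over GENCODE M21 (GRCm38), and the deposited table holds raw whole-number counts per gene. Tool versions and the settings for strand, introns and reads that match several genes were not given in the sources used here. The 92 lines that name no gene held 0 counts. The 3 libraries of a condition are the labelled biological replicates, and p-values measure the spread between these libraries. No 2 libraries were identical.

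Counts were analysed with edgeR 4.0.16 (R 4.3.3, limma 3.58.1) by the quasi-likelihood test with TMM normalisation, filterByExpr (minimum count 10, minimum total 15) and Benjamini-Hochberg adjustment over all genes tested, with called meaning an adjusted p under 0.05. Per comparison, 954 to 5268 of the 20369 to 25515 genes tested had an unadjusted p under 0.05. The summed Zscan4 counts were tested in a separate fit of the same design, as 1 row in place of the 6 copies. Comparisons of progeny with sorted cells at D4, and of D6 with D4 progeny, had the gate as a term. Alternatives were DESeq2 1.42.0 (Wald test, and its size factors in edgeR), no filter, 1 fit of all 57 libraries, a replicate block and leaving out each library. The main edgeR fit was tested on simulated counts in 4 of the 21 comparisons, and the alternatives were not. Members and gene lists were chosen with earlier results of these data known. The fits of sorted D2 and D6 cells also held the libraries of the contrasts that led to the choice. Named genes were the members, at most 4 called genes per list and comparison (smallest p) and the 10 genes with a mean of at least 1 CPM closest to summed Zscan4 by Spearman's rho.

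Pairing by replicate number was examined through the correlation of deviations from group means over 5000 genes, in 25 pairs of groups. All 3 correlations were over 0.1 in 10 of them (range over all pairs -0.27 to 0.60), which were taken as paired. The main fits had no replicate term, so their p-values ignore this pairing. It entered only through the replicate block, given as an alternative. Depth of 10170632 to 81845651 counts gives a 3-count floor of 0.0368 to 0.388 CPM. Tables and sequences were read with Python 3.11.15, pandas 2.3.3 and Biopython 1.88.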

Additional observations from a re-analysis of the deposited data

How the results depend on the processing

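The level of summed Zscan4 was recomputed for the 19 conditions on DESeq2's normalised counts, with Usp17la added and with Zscan4-ps1, Zscan4-ps2 and Zscan4-ps3 added. All 57 values moved by less than the spread between replicates, with D6 Sox1-FoxA2+ cells lowest each time. That spread was wide, so few changes could have exceeded it. Adding the pseudogenes moved 9 conditions in the order by median, by at most 2 places, and 6 in the order by mean, by at most 1. By median D2 Sox1-FoxA2- cells were highest, and by mean D4 Sox1+FoxA2+ cells. The 3 libraries per condition limit which differences could be called, and a library with no count of a gene allows a level up to its 3-count floor.

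Without the filter on low counts, summed Zscan4 passed the test (edgeR) in 14 more comparisons with little change in its difference and a smaller SE, such as 0.41 in place of 1.11 in D4 Sox1-FoxA2+ against Sox1+FoxA2-, where the genes called rose from 52 to 251. The sum and the members called were 1.49 and 4 in Sox1-FoxA2- cells at D2 against D0 and -0.91 and 2 at D6 against D0. At D4 they were -3.42 and 6 in Sox1-FoxA2+ against Sox1+FoxA2-, 3.28 and 7 in Sox1+FoxA2+ against Sox1+FoxA2-, -5.33 and 7 in Sox1-FoxA2+ against Sox1-FoxA2-, and -1.91 and 3 in Sox1+FoxA2- against Sox1-FoxA2- cells. They were -4.59 and 7 in D2 Sox1+FoxA2+ against Sox1-FoxA2- cells and 4.77 and 7 in Sox1+FoxA2+ cells at D4 against D2. In progeny they were -1.61 and 2 in D4 Sox1-FoxA2+ against Sox1+FoxA2-, 1.14 and 0 in D4 Sox1+FoxA2+ against Sox1-FoxA2+, -3.99 and 6 in D6 Sox1-FoxA2+ against Sox1+FoxA2-, 3.12 and 4 in D6 Sox1+FoxA2+ against Sox1-FoxA2+, -1.87 and 1 in D6 Sox1+FoxA2+ against sorted cells, and -2.20 and 5 in D6 against D4. Members called also went to 7 in D4 Sox1+FoxA2+ against Sox1-FoxA2+ cells and to 2 in Sox1+FoxA2+ cells at D6 against D2. The cause was not tested.

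DESeq2's Wald test called the sum in D4 Sox1-FoxA2+ against Sox1-FoxA2- (-5.37), Sox1+FoxA2+ D4 against D2 (4.77) and D6 against D4 progeny (-2.23), with 5, 6 and 2 members. It called 7 members in D4 Sox1+FoxA2+ against Sox1-FoxA2+, 2 in D4 Sox1-FoxA2+ against Sox1+FoxA2-, 3 in D6 progeny Sox1-FoxA2+ against Sox1+FoxA2-, and 1 each in Sox1-FoxA2- D6 against D0, in Sox1+FoxA2+ against Sox1+FoxA2- of the D4 sorted cells and of the D6 progeny, in Sox1+FoxA2+ D6 against D2 and D6 Sox1+FoxA2+ progeny against sorted cells. With DESeq2's size factors edgeR called 0 members in D4 Sox1-FoxA2+ against Sox1+FoxA2- and 2 in Sox1+FoxA2+ against Sox1-FoxA2+. With all 57 libraries in 1 fit it called 0 in Sox1-FoxA2+ against Sox1+FoxA2- of the D4 sorted cells and of the D6 progeny and in D6 progeny Sox1+FoxA2+ against Sox1-FoxA2+, and 1 in D4 Sox1-FoxA2+ against Sox1-FoxA2-, in Sox1+FoxA2+ at D4 and D6 against D2 and in D6 Sox1+FoxA2+ progeny against sorted cells. The cause was not tested.

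With the replicate block the sum passed in D4 Sox1-FoxA2+ against Sox1-FoxA2- (-5.70), a paired comparison. In comparisons whose libraries share only a number, the block moved Sox1+FoxA2+ D4 against D2 to 4.58 with 3 members called and D6 against D4 progeny to -2.56 with 2 members, and the sum was called in both. Members called under the block went to 1 in Sox1-FoxA2- D6 against D0 and in Sox1+FoxA2+ D6 against D2, and to 0 in D6 progeny Sox1-FoxA2+ against Sox1+FoxA2-, and, paired, in D6 progeny Sox1+FoxA2+ against Sox1-FoxA2+. It changed no other call of the sum.

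Leaving out 1 library at a time, the sum ran from 4.63 to 8.57 in D4 Sox1+FoxA2+ against Sox1-FoxA2+ (2 to 5 members called), from -7.14 to -4.28 in D4 Sox1-FoxA2+ against Sox1-FoxA2-, from 2.71 to 6.84 in Sox1+FoxA2+ D4 against D2 (0 to 6 members) and from -3.09 to -1.89 in D6 against D4 progeny (1 to 2 members). It turned sign in Sox1-FoxA2- D4 against D0 (-0.82 to 0.86), where it was -0.29 without D0 replicate 1 and -0.82 without D4 replicate 2. It also turned sign in D6 progeny Sox1+FoxA2+ against Sox1+FoxA2- (-3.88 to 0.78) and in D4 progeny against sorted cells (-0.87 to 0.16). Members called ran from 0 to 1 in D2 Sox1+FoxA2+ against Sox1-FoxA2-, D4 Sox1-FoxA2+ against Sox1+FoxA2-, both D6 progeny contrasts with Sox1-FoxA2+ and Sox1+FoxA2+ D6 against D2.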
